A study of Mus musculus with 27 samples.

Results

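The subject is a set of 4 mature microRNA (miRNA) entries linked by name to the choroid plexus: mmu-miR-204-5p, mmu-miR-204-3p, mmu-miR-211-5p and mmu-miR-448-3p, written below without the prefix for mouse. They are rows of a count table picked by their names, with earlier results of these data known, and all 4 of them were present among its 1842 entries. The table covers 27 small RNA libraries from the cortex of wild-type C57BL6 mice aged 7 to 8 weeks, with 3 libraries in each of 9 groups. Sham mice were anaesthetised and had their arteries exposed, with no filament inserted. The other mice had the middle cerebral artery blocked by a filament for 35 min (MCAO, a model of transient ischemic stroke) and recovered for 3, 6, 12 or 24 h. Cortex was then taken from the blocked (ipsilateral) hemisphere and from the opposite (contralateral) one, and these groups are written ipsi_3h, contra_3h and so on. The replicate sets came from different days of surgery, per the series' design text, so replicates 1, 2 and 3 are read here as 3 surgery days. The sources used here do not say whether both hemispheres of one number came from one animal. It is also not certain from them that one number stands for the same day in every group.

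The choroid plexus is the sheet of epithelium inside the brain ventricles that makes cerebrospinal fluid. A miRNA is cut from a hairpin RNA and guides a silencing complex to messenger RNAs that pair with its seed, the bases near its 5′ end. Each hairpin can yield a 5p and a 3p product, one from each arm, and usually one of them is kept and the other degraded. miR-204 and miR-211 are related miRNAs that lie within genes of TRPM ion channels, and miR-204 is known from the choroid plexus and the pigment epithelium of the eye. miR-448 lies within Htr2c, the gene of the serotonin 2C receptor, which choroid plexus epithelium transcribes at a very high level and some neurons transcribe too. These libraries are bulk cortex, so the name choroid plexus is a label of the set and not a sorted cell type.

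The mature sequences are shown because they set out which of these entries could be taken for one another, with the seed (bases 2 to 8, counted from 1 at the 5′ end) in capitals. The first pair carries the same seed, the third is the other arm of the miR-204 hairpin, and the last is unrelated.
miR-204-5p: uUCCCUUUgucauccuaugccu
miR-211-5p: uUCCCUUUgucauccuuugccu
miR-204-3p: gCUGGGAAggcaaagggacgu
miR-448-3p: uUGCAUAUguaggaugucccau
miR-204-5p and miR-211-5p were identical at 21 of 22 positions, and the single difference was A17U, with the base of miR-204-5p first. The sources used here do not say how reads matching both entries were assigned, so low values of miR-211-5p may hold reads of the far more abundant miR-204-5p. Among the RefSeq mature sequences of GRCm38.p6, 1 further miRNA had the seed UCCCUUU, miR-7670-3p, with a mean of 17.89 CPM (counts scaled to library size). miR-448-3p matched miR-204-5p at 9 of 22 positions and shared its seed with no other mature sequence.

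All the hairpins lay in introns of protein-coding genes, on the same strand as the host gene (GRCm38.p6). miR-204-5p was at chr19:22750610-22750631 on the plus strand in Trpm3, and miR-204-3p followed it at chr19:22750649-22750669. miR-211-5p was at chr7:64205831-64205852 on the plus strand in Trpm1. miR-448-3p was at chrX:147158281-147158302 on the plus strand in Htr2c. The hairpins of miR-764, miR-1912 and miR-1298 were in Htr2c too, and miR-1298-5p at chrX:147064918-147064939 is used below as a neighbour of miR-448.
miR-1298-5p: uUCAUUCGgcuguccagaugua

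Library totals ranged from 856591 to 1903416 counts. Levels below are CPM scaled by TMM factors, which ran from 0.6759 to 1.511. The edgeR quasi-likelihood test was fitted to the 1470 entries that passed a filter on low counts, among them all 4 members, and an adjusted p under 0.05 is a call. No member count was 0 in any library. Fewer cells of a type and less RNA per cell cannot be told apart in bulk tissue.

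The 4 entries differed widely in level. miR-204-5p was the abundant one, with a mean of 3466 ± 1239 CPM (SD over 27 libraries), the rank of 42 among 1842 entries. miR-448-3p had a mean of 27.17 ± 22.86 CPM and miR-211-5p one of 26.81 ± 14.5 CPM. miR-204-3p, the other arm of the miR-204 hairpin, had a mean of 7.904 ± 2.889 CPM from 2 to 22 counts per library, below the median entry of the table at 11.13 CPM. With so few counts, changes in miR-204-3p were detectable only if large.

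**Figure D1:**
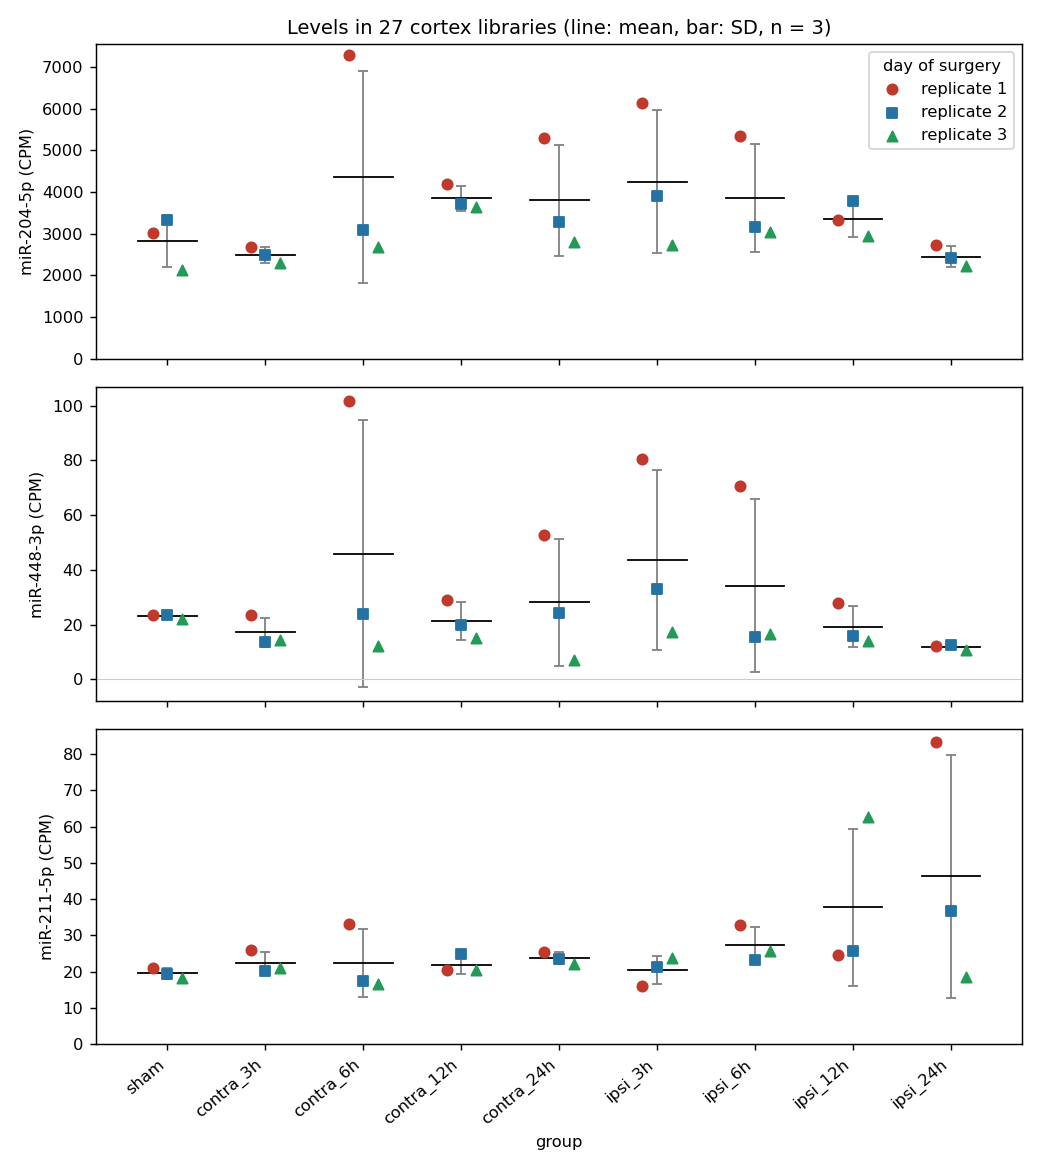
Level of miR-204-5p, miR-448-3p and miR-211-5p in CPM (vertical axes, linear) in each of the 27 libraries by group, coloured by replicate number (day of surgery), with the mean and SD of each group (n = 3). Replicate 1 of contra_6h, contra_24h, ipsi_3h and ipsi_6h stood above the rest for miR-204-5p (5302 to 7276 CPM) and miR-448-3p, while miR-211-5p was highest in replicate 1 of ipsi_24h and replicate 3 of ipsi_12h.

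miR-204-5p in sham cortex was at 3011, 3331 and 2121 CPM in replicates 1, 2 and 3. In contralateral cortex it was at 2679, 2480 and 2292 CPM at 3 h, and at 7276, 3098 and 2685 CPM at 6 h. It was at 4199, 3709 and 3633 CPM at 12 h, and at 5302, 3279 and 2808 CPM at 24 h on that side. Replicate 1 was thus the highest in every contralateral group, and at 6 h it was far above both other libraries. In ipsilateral cortex miR-204-5p was at 6122, 3896 and 2732 CPM at 3 h, and at 5339, 3159 and 3049 CPM at 6 h. It was at 3330, 3771 and 2933 CPM at 12 h, and at 2729, 2403 and 2218 CPM at 24 h. The lowest library of all was sham replicate 3 and the highest was contra_6h replicate 1, a range of 3.43-fold. Ordered by group mean, miR-204-5p ran from 4353 ± 2540 CPM in contra_6h (SD, n = 3) down to 2450 ± 258.9 in ipsi_24h. Each of the 8 pairs of neighbours in that order overlapped and differed by less than their SD.

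miR-448-3p, from the Htr2c intron, followed the same libraries. It was at 23.51, 23.59 and 22.22 CPM in sham, with the 3 libraries close together. Contralateral cortex had 23.35, 13.57 and 14.52 CPM at 3 h, and 101.7, 23.92 and 12.06 CPM at 6 h. At 12 h that side had 28.9, 19.96 and 15.03 CPM, and at 24 h it had 52.81, 24.41 and 7.007 CPM. Within contra_6h and contra_24h, replicate 1 was the highest and replicate 3 the lowest. Ipsilateral cortex had 80.45, 33.13 and 17.27 CPM at 3 h, and 70.71, 15.5 and 16.6 CPM at 6 h. At 12 h it had 27.77, 15.96 and 14.13 CPM, and at 24 h it had 12.3, 12.51 and 10.82 CPM. The range over all libraries was 14.51-fold in CPM, and the counts per library lay between 6 and 120. The 4 highest libraries, at 52.81 to 101.7 CPM, were also the 4 highest in miR-204-5p, and all of them were replicate 1.

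miR-211-5p, the near-copy of miR-204-5p, had another pattern. It was at 21.07, 19.22 and 18.18 CPM in sham. Contralateral cortex had 25.8, 20.04 and 20.87 CPM at 3 h, 33.15, 17.48 and 16.45 at 6 h, 20.34, 24.72 and 20.5 at 12 h, and 25.46, 23.57 and 22.19 at 24 h. Apart from contra_6h replicate 1, the contralateral libraries lay between 16.45 and 25.8 CPM, around the sham level. Ipsilateral cortex had 16.09, 21.3 and 23.75 CPM at 3 h, and 32.86, 23.24 and 25.73 CPM at 6 h. At 12 h it had 24.68, 25.78 and 62.68 CPM, and at 24 h it had 83.36, 36.82 and 18.54 CPM. The highest libraries were therefore late ipsilateral ones, but not the same replicate at both times, and ipsi_24h replicate 3 stood at the sham level. The group means ran from 46.24 ± 33.42 CPM in ipsi_24h (SD, n = 3) and 37.72 ± 21.63 in ipsi_12h down to 19.49 ± 1.464 in sham, with all neighbours in the order overlapping.

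Whether the members differed between the hemispheres was tested at each time. At 3 h, 0 of the 4 members were called, where 0% of the 1470 entries were. At 6 h the members called were again 0 of 4 and the entries called 0%. At 12 h, 0 of 4 members passed beside 4.35% of entries, and at 24 h, 0 of 4 beside 13.3%. An unadjusted edgeR p under 0.05 was reached by 2, 0, 0 and 1 members at 3, 6, 12 and 24 h. That held for 58, 64, 164 and 351 of the 1470 entries. DESeq2 called 0 members at each time, beside 11 of 555, 4 of 1467, 78 of 1182 and 209 of 1467 entries with a DESeq2 adjusted p. The 555 may leave out miR-204-3p, at rank 1172 of 1842 in level. At 3 h the 3 ipsilateral libraries of miR-204-5p all lay above the 3 contralateral ones, and the log2 fold change was 0.77 ± 0.33 with its SE (edgeR adjusted p = 0.999), and 9.05% of entries had groups that did not overlap there. At 24 h the order was the opposite: all 3 ipsilateral libraries of miR-204-5p lay below the contralateral ones, and the log2 fold change was -0.63 ± 0.33 (edgeR adjusted p = 0.256), beside 28.2% of entries with no overlap. With the surgery day as a block this difference was -0.58 ± 0.22 (edgeR adjusted p = 0.0662), and 20% of entries were called. Both separations of miR-204-5p depended on the scaling, since the groups overlapped in CPM of the library total without TMM factors. On that scale ipsi_3h replicate 3 was at 2938 CPM beside 3436 in contra_3h replicate 1. Likewise ipsi_24h replicate 1 was at 3907 CPM beside 2715 in contra_24h replicate 2. At 6 h and 12 h the log2 fold changes of miR-204-5p were -0.18 ± 0.33 and -0.20 ± 0.33 (edgeR adjusted p = 0.993 and 0.999). The value at 6 h rested on contra_6h replicate 1, without which it was 0.41 (edgeR adjusted p = 0.884).

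The values of miR-448-3p had the same signs as those of miR-204-5p at each of the 4 times, with larger errors. Its log2 fold change between hemispheres was 1.34 ± 0.67 at 3 h (edgeR adjusted p = 0.999) and -1.25 ± 0.70 at 24 h (edgeR adjusted p = 0.295). At 6 h it was -0.43 ± 0.66, which turned to 0.90 without contra_6h replicate 1, and at 12 h it was -0.15 ± 0.71. In ipsi_24h all 3 libraries of miR-448-3p lay below the 3 sham libraries, where 28.9% of entries did not overlap, and the difference was -0.95 on the log2 scale (edgeR adjusted p = 0.446). Without TMM factors they lay below as well, with ipsi_24h replicate 1 at 17.61 CPM and sham replicate 2 at 19.87 CPM. For miR-204-3p the log2 fold changes between hemispheres lay between -0.45 and 0.82, and its smallest edgeR adjusted p was 0.698, at 24 h.

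miR-211-5p had the 1 call of the set. In ipsi_24h it was higher than in sham, and the difference was 1.24 ± 0.42 on the log2 scale (edgeR adjusted p = 0.0495), where 12.7% of all entries were called and 11.3% were called higher. The 2 groups overlapped, since ipsi_24h replicate 3 at 18.54 CPM lay within the sham range of 18.18 to 21.07 CPM. DESeq2 called it too (log2 fold change 1.15, DESeq2 adjusted p = 0.0491, with 192 of 1467 entries called), and so did edgeR with the surgery day as a block (1.19, adjusted p = 0.0365, with 18.8% of entries called). The call ended with a fit to the 2 groups alone (edgeR adjusted p = 0.181) and without the filter on low counts (0.053). It ended also without sham replicate 1, 2 or 3 (0.124, 0.159 and 0.135), and without ipsi_24h replicate 1 it was 0.51 on the log2 scale (edgeR adjusted p = 0.645). Without replicate 1 of every group the value was 0.67 (0.554), and without replicate 2 of every group it was 1.25 (0.267). At 3, 6 and 12 h, 0 of 4 members were called against sham, beside 0%, 0% and 5.44% of entries, with 0, 0 and 1 members at an unadjusted p under 0.05 and 0 called by DESeq2. At 12 h the difference of miR-211-5p from sham was 0.96 ± 0.42 (edgeR adjusted p = 0.265), with all 3 ipsilateral libraries above sham, where 14.8% of entries did not overlap. All 3 libraries of ipsi_6h and of contra_24h lay above sham as well, where 9.05% and 7.07% of entries did not overlap. Without TMM factors all of these groups overlapped sham. Their replicate 2 was then at 21.24 CPM in ipsi_6h, 17.41 in ipsi_12h and 19.51 in contra_24h, beside 23.11 in sham replicate 1.

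Against contralateral cortex the miR-211-5p differences were -0.14 ± 0.42 at 3 h, 0.29 ± 0.43 at 6 h, 0.79 ± 0.42 at 12 h and 0.96 ± 0.41 at 24 h on the log2 scale. None of these passed (edgeR adjusted p = 0.999, 0.987, 0.553 and 0.143). At 24 h the choice of scaling and 1 library decided the call: it was 1.51 with total counts in place of TMM (edgeR adjusted p = 0.0428) and 1.33 without ipsi_24h replicate 3 (0.0201). Total counts also moved the median log2 fold change of all 1470 entries at 24 h, from 0.08 to 0.57. Averaged over the 4 times, miR-211-5p differed between hemispheres by 0.47 ± 0.21 (edgeR adjusted p = 0.178) and miR-204-5p by -0.06 ± 0.17 (0.87). In that edgeR test 0 of 4 members and 11.6% of entries were called, with 1 member and 315 of 1470 entries at an unadjusted p under 0.05. DESeq2 called 0 members and 176 of 1467 entries. A joint test for a hemisphere difference at any time called 0 of 4 members beside 8.98% of entries (edgeR). It had 0 members and 235 of 1470 entries at an unadjusted p under 0.05, and DESeq2 called 0 members and 160 of 1467 entries. The test of whether the hemisphere difference changed over time gave an adjusted p of 0.486 for miR-204-5p and 0.938 for miR-211-5p (edgeR). Here edgeR called 0 of 4 members and 0.612% of entries, with 1 member and 137 of 1470 entries at an unadjusted p under 0.05. DESeq2 called 0 members and 46 of the 1011 entries with a DESeq2 adjusted p. The 1011 may leave out miR-204-3p, at rank 1172 of 1842 in level. For change over time within ipsilateral cortex the adjusted p values were 0.415 for miR-204-5p, 0.225 for miR-211-5p and 0.268 for miR-448-3p (edgeR). That test called 0 of 4 members and 9.59% of entries, with 1 member and 284 of 1470 entries at an unadjusted p under 0.05. DESeq2 called 0 members and 172 of 1467 entries for the same change. miR-211-5p passed that test without ipsi_24h replicate 3 (edgeR adjusted p = 0.0325).

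**Figure D2:**
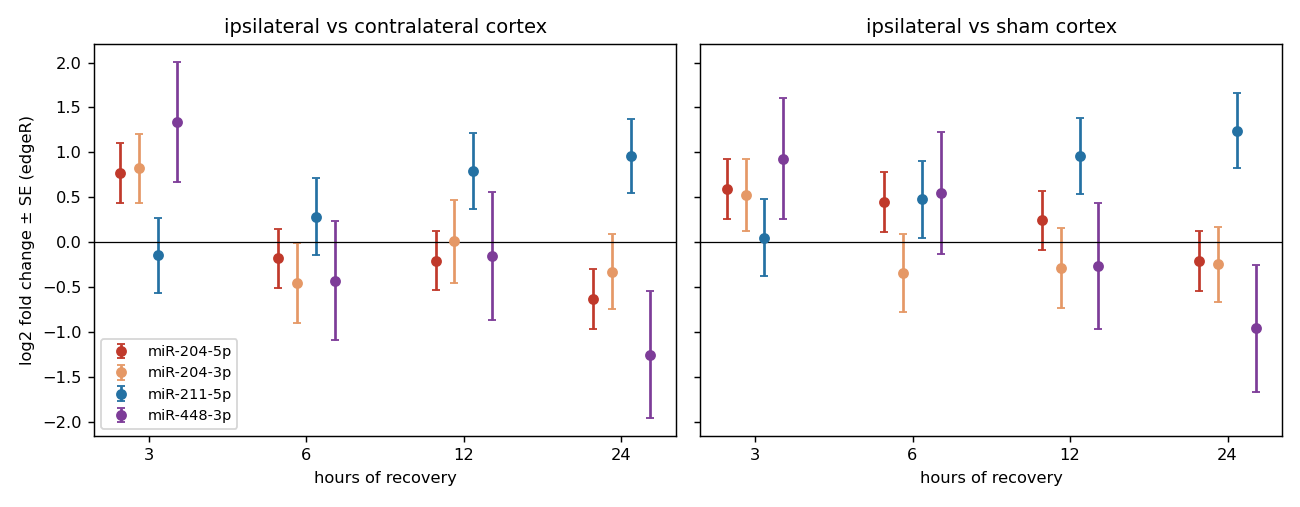
Log2 fold change with its SE from edgeR (vertical axis) for the 4 entries at 3, 6, 12 and 24 h of recovery, for ipsilateral against contralateral cortex (left) and ipsilateral against sham cortex (right). miR-204-5p and miR-448-3p lie above 0 at 3 h and below 0 at 24 h, miR-211-5p lies at 0.79 and 0.96 at 12 and 24 h on the left, and the 1 call is miR-211-5p at 24 h against sham.

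The comparisons of contralateral cortex with sham called 0 of 4 members at each time, beside 0% of entries, and DESeq2 called 0 of 1467 entries. At 3, 6, 12 and 24 h, 0 members had an unadjusted edgeR p under 0.05, beside 26, 34, 64 and 33 of 1470 entries. The smallest edgeR adjusted p was 0.968 for miR-204-5p, 0.968 for miR-204-3p, 0.976 for miR-211-5p and 0.989 for miR-448-3p, all at 12 h. At 12 h all 3 contralateral libraries of miR-204-5p were above sham, where 11% of entries did not overlap. Without TMM factors the groups overlapped, with contra_12h replicate 3 at 2777 CPM and sham replicate 1 at 3302 CPM.

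miR-204-5p and miR-448-3p differed between the replicate numbers, read here as surgery days, and replicate 1 was the high one. In a joint edgeR test of the replicate number, 2 of the 4 members were called, where 25% of the 1470 entries were. miR-204-5p had an adjusted p of 0.00123 and miR-448-3p one of 0.000193, whereas miR-211-5p had 0.47 and miR-204-3p 0.451. With total counts in place of TMM all 4 were called, as were 749 of the 1470 entries, miR-211-5p with an edgeR adjusted p of 0.0428 and miR-204-3p with 0.0443. Across the 9 groups miR-204-5p averaged 4443 ± 1650 CPM in replicate 1, 3236 ± 530.0 in replicate 2 and 2719 ± 473.0 in replicate 3 (SD, n = 9 libraries each). Replicate 1 was the highest of its group in 7 of 9 groups and replicate 3 in 0. For miR-448-3p the averages were 46.83 ± 31.05, 20.28 ± 6.648 and 14.41 ± 4.298 CPM, and replicate 1 was again the highest in 7 of 9 groups. The day accounted for 59.1% of the within-group variance of log2 CPM of miR-204-5p, where the median entry of at least 100 CPM had 46.5%. It accounted for 61.7% in miR-448-3p and 9.24% in miR-211-5p, where the median entry of 10 to under 100 CPM had 23.1%.

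The size of the within-group spread set miR-448-3p apart and not miR-204-5p. The within-group SD of log2 CPM was 0.418 for miR-204-5p, beside a median of 0.416 over 283 entries of at least 100 CPM. It was 0.886 for miR-448-3p, and 44 of the 720 entries between 10 and 100 CPM had a higher one. For miR-211-5p it was 0.480, near the median of 0.46 in the same band.

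**Figure D3:**
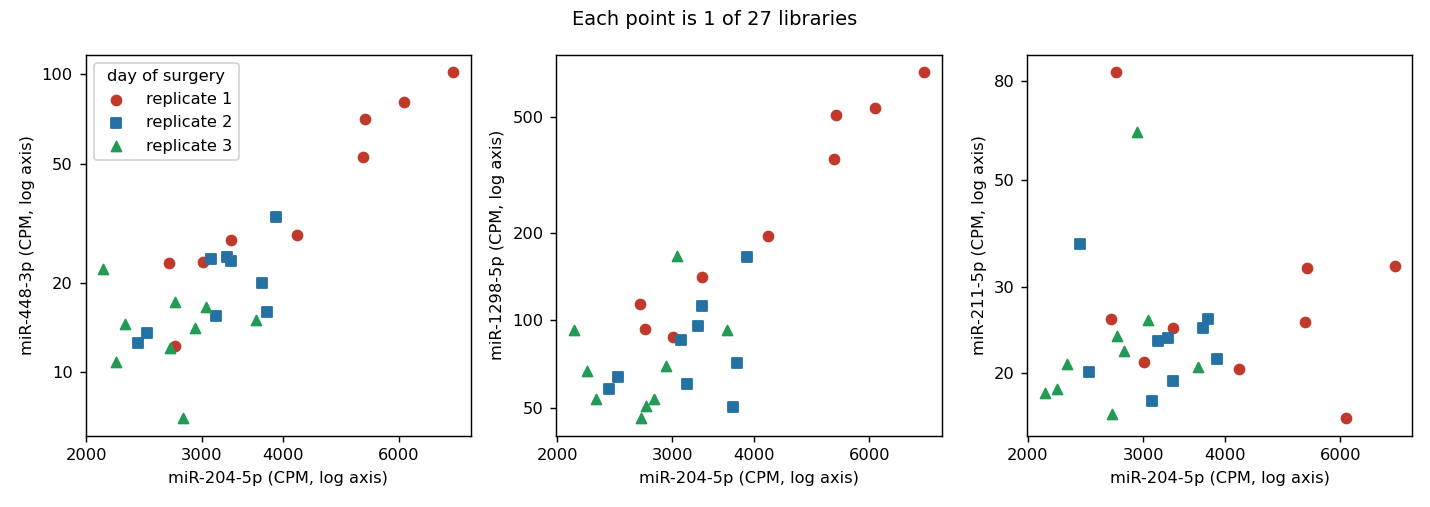
Each point is 1 of the 27 libraries, with miR-204-5p in CPM on the horizontal log axis and miR-448-3p, miR-1298-5p or miR-211-5p in CPM on the vertical log axes, coloured by replicate number. The replicate 1 libraries run along a rising line in the first and second panels (r = 0.95 and 0.98, n = 9), and no such line is seen for miR-211-5p.

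miR-204-5p and miR-448-3p varied together across libraries although they lie on different chromosomes. Over the 27 libraries the correlation of their log2 CPM was r = 0.85 (Spearman's rho 0.75), and 0.90 after the group means were subtracted. The libraries share depth and composition, so these values are descriptions only. Without ipsi_3h replicate 1 and contra_6h replicate 1, the 2 libraries farthest from the median of miR-204-5p, r was 0.74. Within the 9 libraries of replicate 1 it was 0.95 (rho 0.98), within replicate 2 it was 0.68 (0.62), and within replicate 3 it was -0.11 (-0.02). The relation therefore rested on replicates 1 and 2. For miR-211-5p the r with miR-204-5p was 0.02 over 27 libraries (rho 0.13), and -0.29, -0.29 and 0.33 within replicates 1, 2 and 3 (rho -0.12, 0.07 and 0.60). That value depended on the scaling: with total counts in place of TMM it was r = 0.34 and rho = 0.66, beside r = 0.90 and rho = 0.71 for miR-448-3p. miR-204-3p, from the same hairpin as miR-204-5p, had r = 0.07 with it, with few counts behind each value.

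miR-1298-5p, also from the Htr2c intron and singled out after its values were seen, was high in the same libraries. It was at 714.9 CPM in contra_6h replicate 1, beside 85.57 and 46.05 CPM in replicates 2 and 3. It was at 535.7 CPM in ipsi_3h replicate 1, beside 164.9 and 50.73 CPM, and at 508.9 CPM in ipsi_6h replicate 1, beside 60.26 and 166.0 CPM. In contra_24h replicate 1 it was at 358.3 CPM, beside 95.96 and 53.72 CPM, and in sham at 87.54, 111.8 and 92.94 CPM. Its r with miR-204-5p was 0.85 over 27 libraries, 0.98 within replicate 1, 0.43 within replicate 2 and 0.29 within replicate 3. The other Htr2c entries had r of 0.63 (miR-1912-5p), 0.57 (miR-1298-3p), 0.34 (miR-1264-3p), 0.32 (miR-764-3p), 0.30 (miR-1264-5p), 0.22 (miR-448-5p), 0.13 (miR-1912-3p) and 0.09 (miR-764-5p) with miR-204-5p over 27 libraries, so most of the cluster had a weak r with it. Few counts can lower r: miR-764-5p, miR-448-5p and miR-1264-5p had means of 9.251, 8.792 and 6.587 CPM. The mean of miR-764-3p was 26.09 CPM, near that of miR-448-3p. Between miR-1298-5p and miR-448-3p r was 0.92 over 27 libraries, and 0.96, 0.83 and 0.45 within replicates 1, 2 and 3. Of the 10 listed entries of the Htr2c cluster, all 10 were tested and 4 were called by surgery day, beside 25% of all entries: miR-448-3p, miR-1298-5p, miR-1912-5p and miR-1264-3p. The last of these was highest in replicate 2 in 5 of 9 groups, unlike the other named ones, which were highest in replicate 1 in 7, 8 and 7 groups. The cluster had 0 of 10 entries called at 3, 6, 12 or 24 h between the hemispheres (edgeR, with 0, 0, 1 and 0 at an unadjusted p under 0.05), beside 0%, 0%, 4.35% and 13.3% of all entries. It had median log2 fold changes of 0.39, -0.06, -0.21 and -0.30, beside 0.01, 0.05, -0.03 and 0.08 over all entries.

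In the miR-448 and miR-1298 hairpins the ratios of the arms were above their medians in these libraries. The libraries were singled out for high miR-448-3p and miR-1298-5p, the upper terms of the ratios. That choice favours high ratios, so they add no separate support. The miR-448 ratios also rested on only 9 to 13 counts of miR-448-5p in these libraries. In contra_6h, ipsi_3h, ipsi_6h and contra_24h, replicate 1 held 8.81, 8.926, 6.217 and 5.947 counts of miR-448-3p per count of miR-448-5p, where the median of the 27 libraries was 2.391. The same 4 libraries held 4.642, 5.571, 4.391 and 3.323 counts of miR-1298-5p per count of miR-1298-3p, where the median was 1.154. The levels of miR-448-5p in them were 11.05, 8.716, 10.95 and 8.487 CPM, inside the range of 4.099 to 16.16 CPM over all libraries. Those of miR-1298-3p were 153.6, 95.87, 115.5 and 107.5 CPM, in a range of 31.53 to 153.6 CPM with its top in contra_6h replicate 1. For miR-204 the ratio of 5p to 3p had a median of 371.1 and ran from 187.5 to 1229. That ratio was 774.8, 405.8, 1191 and 591.9 in the same 4 libraries, from only 4 to 22 counts of the 3p arm. All of these ratios had 0.5 added to both counts.

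**Figure D4:**
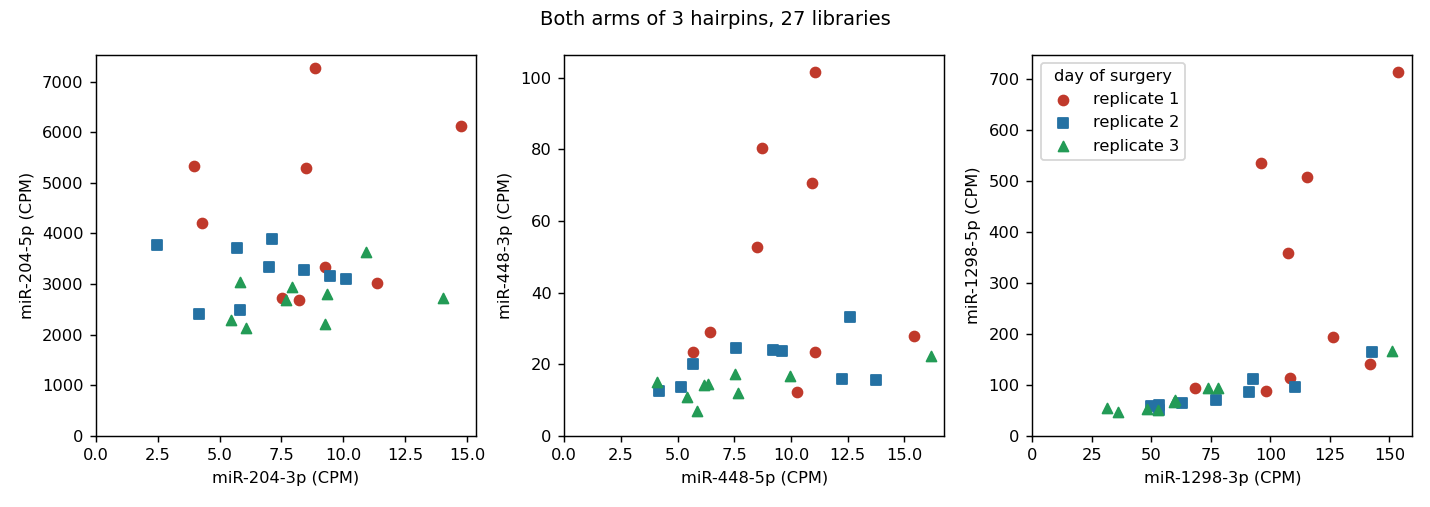
The more abundant arm against the other arm of the miR-204, miR-448 and miR-1298 hairpins (both axes in CPM, linear, from 0), 1 point per library, coloured by replicate number. The replicate 1 libraries with 52.81 to 101.7 CPM of miR-448-3p and 358.3 to 714.9 CPM of miR-1298-5p stand above the others, while for miR-448-5p they lie inside the range of the rest. They were singled out for their high levels on the vertical axes.

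Markers of other cells that a cortex sample could hold were set beside this pattern. In the list of ciliated and ependymal cells, which line the ventricles next to the choroid plexus, 8 of 8 entries were present and 6 were tested. Its summed level was 471.7 to 567 CPM in sham and highest in contra_6h replicate 1 at 1047 CPM, with r = 0.83 to miR-204-5p. The summed level ran from 326.7 to 493.9 CPM in contra_3h, 446.3 to 1047 in contra_6h, 409.9 to 661.6 in contra_12h and 400.6 to 791.1 in contra_24h. In ipsilateral cortex it ran from 368.1 to 834.6 CPM at 3 h, 458.2 to 768.8 at 6 h, 340.8 to 605.1 at 12 h and 348.5 to 368.2 at 24 h. miR-34c-5p made up most of that sum. Among the miR-449 entries, known from ciliated cells, miR-449a-5p had a mean of 7.397 CPM and r = -0.01 with miR-204-5p, and miR-449a-3p was at 0 in at least 1 library. miR-449b averaged 7.364, 4.049 and 3.26 CPM in replicates 1, 2 and 3, was highest in replicate 1 in 7 of 9 groups and was called by surgery day in edgeR. miR-449c-5p averaged 4.724, 3.664 and 2.996 CPM and was highest in replicate 1 in 5 of 9 groups. Replicate 1 was the highest in 5 groups for miR-34c-5p, 6 for miR-34c-3p and 5 for miR-449a-3p. It was the highest in 2 groups for miR-449a-5p and in 1 each for miR-34b-5p and miR-34b-3p. miR-34b-5p, at a mean of 98.14 CPM, was highest in replicate 2 in 8 of 9 groups. The summed list was highest in replicate 1 in 4 of 9 groups. The part of such cells in the pattern was not tested. The list of the epithelial miR-200 and miR-183 clusters had r = 0.00 with miR-204-5p, and its peaks were in other libraries: miR-182-5p reached 22410 CPM in sham replicate 2, where miR-204-5p was at 3331 CPM. The summed neuron-enriched list had r = 0.12 and the meninges and fibroblast list r = 0.16 with miR-204-5p. Some single neuron-enriched entries ran the other way from miR-204-5p by day. miR-124-3p averaged 3289 CPM in replicate 1, 6500 in replicate 2 and 5993 in replicate 3, with r = -0.39 to miR-204-5p (-0.60 after the group means were subtracted, and -0.74 with total counts). miR-128-3p and miR-218-5p were also lowest in replicate 1 on average, with log2 deviations from the group means of -0.47 and -0.41 there, beside 0.34 for miR-204-5p. The deviations in replicate 1 were smaller for miR-132-3p (-0.29), miR-137-3p (-0.23), miR-138-5p (-0.13), miR-9-5p (-0.11) and miR-181a-5p (-0.03). On average miR-9-5p and miR-181a-5p were lowest in replicate 3, as miR-204-5p was. The part of these differences in the pattern of miR-204-5p was not tested.

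The entries most like miR-204-5p were looked up among 282 other entries of at least 100 CPM, by Pearson's r of log2 CPM over 27 libraries. They were miR-34c-5p (0.85), miR-1298-5p (0.85), miR-30c-2-3p (0.72), miR-540-3p (0.71) and let-7f-2-3p (0.70), where the median candidate had -0.01. The r of miR-34c-5p was 0.95, 0.70 and 0.28 within replicates 1, 2 and 3. miR-34c-5p was at 853 CPM in contra_6h replicate 1, 639.3 in contra_24h replicate 1 and 600.5 in ipsi_6h replicate 1, but at 3 h on the ipsilateral side replicate 2 held more of it (633.5 CPM) than replicate 1 (535.7 CPM). Of these 5 entries, 4 were called by surgery day (edgeR adjusted p = 0.00974 for miR-34c-5p, 0.00131 for miR-1298-5p, 0.00432 for miR-30c-2-3p and 4.61e-06 for let-7f-2-3p), and miR-540-3p was not (0.109). They were picked for likeness to miR-204-5p, which differed by day itself, and 25% of all entries were called by day, so this count adds no separate support. At 24 h 0 of the 5 were called between hemispheres or against sham (edgeR), beside 13.3% and 12.7% of all entries. Of the 5, 2 and 1 had an unadjusted p under 0.05, beside 351 and 354 of 1470 entries. The smallest adjusted p was 0.0769, of miR-30c-2-3p between hemispheres.

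miR-211-5p had other companions. The entries most like it were miR-181b-1-3p (r = 0.80), miR-671-3p (0.76), miR-6239 (0.76), miR-6937-5p (0.74) and miR-467d-5p (0.73), where the median candidate had -0.26. miR-181b-1-3p was at 1029, 230 and 71.08 CPM in replicates 1, 2 and 3 of ipsi_24h and at 214.5 CPM in ipsi_12h replicate 3, beside 74.57, 67.28 and 64.65 CPM in sham. The 3 highest libraries of miR-211-5p were thus also high in miR-181b-1-3p, with ipsi_24h replicate 2 and ipsi_12h replicate 3 in the opposite order, and without ipsi_24h replicate 1 and ipsi_12h replicate 3 r between these entries was 0.42. All 5 of these entries were called higher in ipsi_24h than in contra_24h, as were 174 of all 1470 entries. The log2 fold changes of the 5 ran from 1.20 ± 0.33 for miR-671-3p to 5.29 ± 0.88 for miR-6937-5p (edgeR adjusted p = 0.0112 and 0.000129). The 5 were picked for likeness over libraries that include ipsi_24h, so this count adds no separate support to the value of miR-211-5p.

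The share of miR-211-5p among the counts of both near-identical entries does not depend on the scaling of a library. Its median over 27 libraries was 0.714%, or 136.7 counts of miR-204-5p per count of miR-211-5p. In sham it was 0.695% (95% Wilson interval 0.475 to 1.02), 0.574% (0.379 to 0.867) and 0.85% (0.538 to 1.34) in replicates 1, 2 and 3. In ipsi_24h it was 2.96% (2.49 to 3.53), 1.51% (1.16 to 1.97) and 0.829% (0.558 to 1.23). Replicates 1 and 2 of ipsi_24h were above all 3 sham libraries, with intervals that did not meet for replicate 1, while replicate 3 was within the sham range. In ipsi_12h it was 0.736%, 0.679% and 2.09% (1.66 to 2.63), so that 1 library of 3 was high there too. The lowest share was 0.262% (0.176 to 0.39) in ipsi_3h replicate 1, from 24 counts of miR-211-5p beside 9131 of miR-204-5p. The intervals cover counting error only. The other arm, miR-211-3p, was low: replicate 1 of ipsi_24h had 13 counts of it beside 122 of miR-211-5p, and sham replicate 1 had 6 beside 26.

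**Figure D5:**
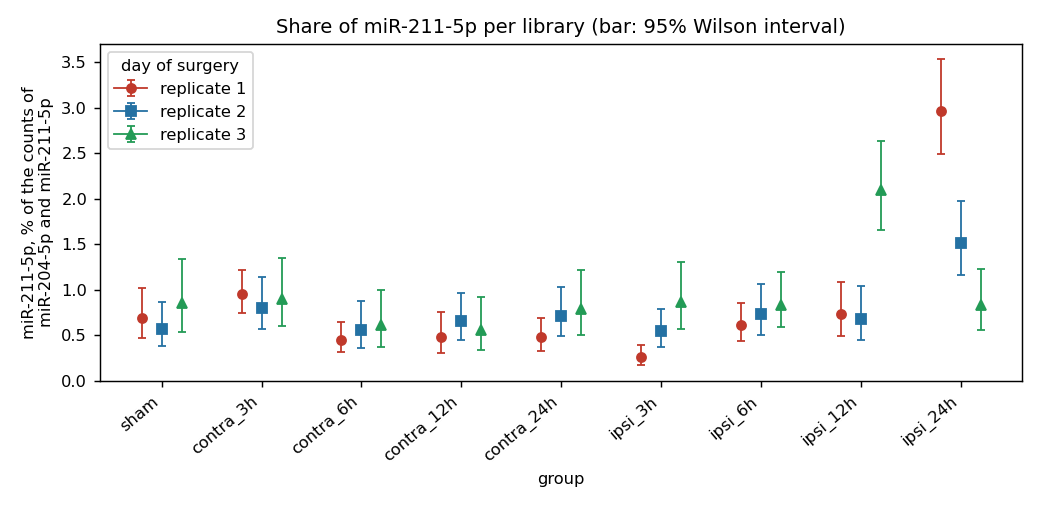
Share of miR-211-5p in the counts of miR-204-5p and miR-211-5p together (vertical axis, %), 1 point per library by group with its 95% Wilson interval, coloured by replicate number. Most libraries lie near the median of 0.714%, and 3 ipsilateral libraries at 12 or 24 h lie at 1.51% to 2.96%.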

How the data were processed

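The members and lists were chosen with earlier results of these data known. The authors deposited 1 table of raw counts per mature miRNA entry for the 27 libraries, and 0 of its columns were left unused. The submitters' processing notes name Novoalign and edgeR, with neither role nor version, and the sources used here name no genome build. Total RNA was made into TruSeq small RNA libraries, per the labels' protocols.

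Entries were tested by quasi-likelihood in edgeR 4.0.16 (R 4.3.3) with TMM factors, filterByExpr and robust dispersions, 1 mean per group over all 27 libraries (18 residual degrees of freedom) and Benjamini-Hochberg adjustment over 1470 entries. The fit by group was also run on simulated counts with known changes, drawn independently for each library. That simulation held no separate day effect and no shared animals, so it does not cover those features of the data. The day of surgery was tested in the same model with the replicate number added (16 residual degrees of freedom). P-values of the fit by group alone measure the spread between libraries of a group, which come from different surgery days. With the replicate number added, as in the day test, they measure the spread left after group and number. Each library counts as independent in both fits, though both hemispheres of a number may come from one animal. Correlations used log2 CPM with a prior count of 2. Named entries are the members, the fixed lists (as counts) and the 5 entries of highest r with miR-204-5p and with miR-211-5p among those of at least 100 CPM. The neighbours shown from the Htr2c list, and the library values and subsets of the correlations, were picked after the values were seen. Sequences and coordinates come from RefSeq and the annotation of GRCm38.p6.

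The series' design text ties replicate sets to surgery days, which makes the replicate number a block. Deviations from group means over 1003 entries correlated at a mean of 0.30 over 108 pairs of libraries with the same number and at -0.15 over 216 pairs with different numbers. Deviations from a group's own mean cancel within the group, so the negative value largely follows from the positive one and adds no separate support. The alternatives were DESeq2 1.42.0, total counts, TMM from entries of at least 100 CPM, no low-count filter, only the libraries compared, the block, and each library or day left out.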

Additional observations from a re-analysis of the deposited data

How the results depend on the processing

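The count of members called stayed the same in 339 of 351 recomputed values, most of them in comparisons with 0 members called. The call of miR-211-5p in ipsi_24h against sham held in only 3 of 9 fits with a library or surgery day left out. With the replicate block the pairing by surgery day changed no call of a member, and miR-211-5p in ipsi_24h against sham remained the 1 call (log2 fold change 1.19). Between hemispheres at 24 h, 1 member was called under total counts and 0 to 1 when single libraries were left out. Against sham at 24 h, 0 were called without the low-count filter or with only the libraries compared, and 0 to 1 when libraries or, as alternatives chosen after seeing the data, whole surgery days were left out. For change over time in ipsilateral cortex, leaving out libraries gave 0 to 1. The surgery day called 4 members under total counts. Directions turned for values near 0 and for values at 6 h that rested on contra_6h replicate 1. Without that library the hemisphere difference at 6 h went from -0.18 to 0.41 for miR-204-5p and from -0.43 to 0.90 for miR-448-3p. Under total counts, miR-448-3p at 12 h between hemispheres was 0.019, miR-204-5p in ipsi_24h against sham 0.19, and the mean hemisphere difference 0.17 for miR-204-5p and 0.12 for miR-448-3p. Under TMM from abundant entries the last 3 were 0.099, 0.087 and 0.044. With libraries or days left out, the log2 fold change between hemispheres ran from -0.32 to 0.19 for miR-211-5p at 3 h, -0.49 to 0.41 for miR-204-5p at 6 h, -1.50 to 0.90 for miR-448-3p at 6 h and -0.51 to 0.12 for miR-448-3p at 12 h. The mean over times ran from -0.18 to 0.09 for miR-204-5p and -0.39 to 0.21 for miR-448-3p. Depth limits miR-204-3p most, with 2 to 22 counts per library.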

Other observations

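The other lists behaved as follows against the surgery day, beside 25% of all entries called (edgeR). In the ciliated and ependymal list 2 of 6 tested entries were called, miR-34c-5p and miR-449b, and in the erythrocyte list 3 of 3. In the meninges and fibroblast list 2 of 4 were called, in the neuron-enriched list 6 of 8, in the muscle list 1 of 1, in the epithelial and sensory list 0 of 6, and among the other arms of the member hairpins 0 of 3, with 0 in either at an unadjusted p under 0.05. In the summed erythrocyte list replicate 1 was the highest in 1 of 9 groups, and in the summed neuron-enriched list in 0 of 9, unlike the Htr2c cluster with 8 of 9. Single members differed from these sums. Replicate 1 was the highest in 7 groups for miR-144-5p, and in 0 for miR-451a and miR-144-3p. In the Htr2c cluster it was the highest in 3 groups for miR-1264-3p, 4 for miR-1264-5p and up to 8 for miR-1298-5p. miR-1298-5p was also the most abundant entry of that sum. The summed Htr2c cluster ranged from 156.5 CPM in a contra_24h library to 1109 CPM in contra_6h replicate 1, with a median of 286.1 CPM.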
